A study of Mus musculus with 6 samples.

Results

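Serpins are a large family of proteins, most of which inhibit serine proteases. The gene set described here was the protein-coding rows of the count table whose symbol begins with Serpin, with clade G left out, and 61 such genes of the 56748 genes listed are described. Of these 61 genes, 22 had enough counts in the libraries to be tested and 39 did not. RNA had been sequenced from cultured primary osteocytes, the cells embedded in bone matrix, in 3 libraries from WT C57BL/6 mice and 3 libraries labelled cKO, from *Gsdmd* fl/fl; DMP1-Cre mice. The Cre recombinase was driven by the DMP1 promoter, which is active in osteocytes, so *Gsdmd*, the gene of the pore-forming protein gasdermin D, was by design targeted in these cells and not in other cells of a culture. The methods give 7-week-old mice for the isolation. The cells of all 6 libraries had been grown for 7 days after digestion of marrow-flushed long bones. LPS (10 ng/mL) was then given for 3 h before aluminum hydroxide (20 µg/mL) was added for another 3 h. Unstimulated cultures are not analysed here, and every value compares the genotypes under stimulation. The labels number the samples of each genotype but do not say that they came from separate cultures or mice. The p-values therefore measure the spread between these libraries, which may be technical.

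A serpin presents an exposed reactive loop that a target protease cuts as if it were a substrate, and the cut serpin then changes shape and traps the protease in a complex that is not released. Clade E holds the inhibitors of the plasminogen activators, clade A the circulating inhibitors of the antitrypsin and antichymotrypsin type, and clade B the inhibitors that stay largely inside cells and act on granule proteases and cathepsins. A few members do not inhibit proteases, among them *Serpinh1*, the collagen chaperone of the endoplasmic reticulum, and *Serpinf1*, a secreted factor whose loss causes a brittle bone disease in humans. In bone, plasminogen activators and their serpin inhibitors are known from osteoblast cultures.

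Totals on genes ran from 39566835 to 49734046 counts per library. Values are given as raw counts or as CPM, counts per 1000000 after scaling by edgeR's TMM method, and a gene passed when its adjusted p-value from edgeR's quasi-likelihood test was below 0.05. It was called when its log2 fold change was also at least 1 in size. *Gsdmd* was counted 609, 699 and 549 times in WT and 885, 937 and 1045 times in cKO, so the targeted gene was higher in the libraries labelled cKO (log2 fold change 0.69, standard error 0.083, adjusted p = 2.27e-06), and each direction rests on those labels. The count pools all exons and does not separate the floxed ones. *Xist* was at 44817 to 51216 counts in cKO and at 0 to 4 in WT, and the Y-linked *Ddx3y* was at 0 in cKO and at 4033 to 5455 in WT, so the genotype and the sex of the cells cannot be told apart. Of 18 macrophage markers, 16 could be tested, and each of these 16 was called higher in cKO, with a summed level of 1208 to 1363 CPM in WT and 6506 to 6822 CPM in cKO. Of 12 tested chondrocyte markers, 8 were called higher and 0 lower, and their summed level went from between 2332 and 2543 CPM to between 3359 and 3561 CPM. Over all tested genes, 6.56% were called higher and 4.64% lower. Of the 7 tested osteocyte markers, 2 rose, 3 fell and 0 were called, and the summed level of all 13 in the table was 1447 to 1535 CPM in WT and 1467 to 1509.6 CPM in cKO. Of these markers, *Sost* and *Dkk1* were at 0 counts in every library, *Mepe* was at 3 counts or fewer and *Dmp1* at 0 to 6 counts, while *Cd44* and *Ackr3*, the markers with the highest CPM in WT, were at 443.1 and 327.3 CPM there and at 494.9 and 329.3 CPM in cKO. Their part in the serpin differences was not tested. In RNA from whole cultures, fewer cells of a type and less RNA per cell cannot be told apart.

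The 22 tested serpin genes fell into 4 that were higher in cKO, 10 that were lower and 8 that did not pass. Over all 17146 tested genes, 20.1% passed as higher and 19.2% as lower, and the groups of libraries did not overlap for 49.2% of them, against 15 of the 22 serpins. Only *Serpina3f* was called higher, where 6.56% of all genes were, and 4 serpins were called lower (*Serpinb2*, *Serpinb9e*, *Serpinb9c* and *Serpina3m*), where 4.64% of all genes were. The median log2 fold change was -0.16 over the tested serpins and 0.0077 over all tested genes. These counts describe the members that passed the filter and not the whole family. For 6 of the 22, fewer than 3 cKO libraries were above the filter's minimum of 0.23 CPM. For 2, fewer than 3 WT libraries were, so a low member could enter through the group where it was high. Among the genes called lower, *Serpinb9e*, *Serpinb9c* and *Serpina3m* had 1, 0 and 0 cKO libraries above that minimum and entered through WT. The counts of lower and of non-overlapping serpins and the median are therefore not read against those of all genes.

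**Figure D1:**
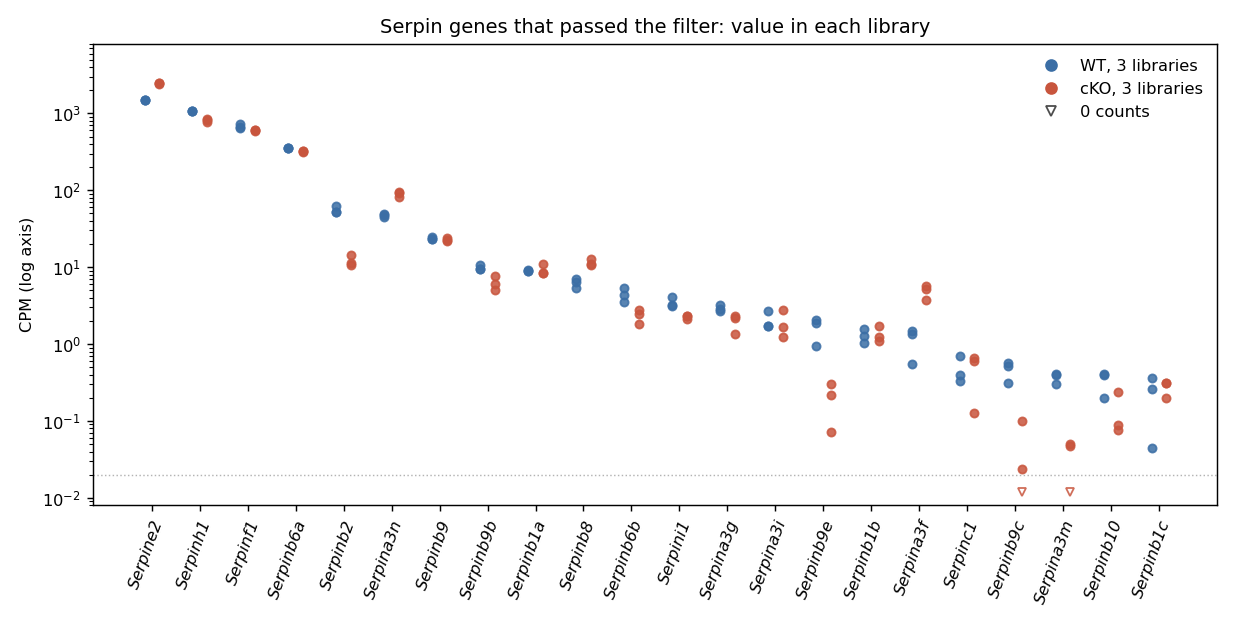
CPM of the 22 tested serpin genes in each of the 6 libraries on a log axis, with WT in blue, cKO in red and open triangles for libraries at 0 counts. The 4 genes on the left lie above 300 CPM in every library, and the groups stand apart most clearly for *Serpinb2*, *Serpina3f*, *Serpinb9e*, *Serpinb9c* and *Serpina3m*.

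Among the serpins described, *Serpinh1*, *Serpinf1*, *Serpine2* and *Serpinb6a* had the highest levels in both groups. Per kilobase of the deposited gene length, *Serpinh1* was at 444.5 ± 2.18 CPM in WT and 334.8 ± 13 CPM in cKO, and *Serpinf1* at 287.0 ± 15.7 and 254.9 ± 3.21 CPM (SD, n = 3 each). On the same scale *Serpine2* was at 178.9 ± 0.63 CPM in WT and 295.7 ± 4.54 CPM in cKO, and *Serpinb6a* at 66.1 ± 0.37 and 59.6 ± 0.94 CPM. The ranges of neighbours were apart in both groups, and *Serpine2*, which stood after *Serpinf1* in WT, stood before it in cKO. The ratio of *Serpine2* to *Serpinh1* was 0.402 ± 0.00060 in WT and 0.885 ± 0.048 in cKO (SD, n = 3 each). The order of these levels depends on the length used. The deposited length of *Serpine2* is 8287 bases against 2210 bases for its canonical GENCODE transcript. Per kilobase of canonical transcript, *Serpine2* was at 670.7 CPM in WT and 1109 CPM in cKO, above *Serpinh1* at 386.5 and 291.0 CPM in both groups. The direction of each gene between the genotypes does not depend on length.

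**Figure D2:**
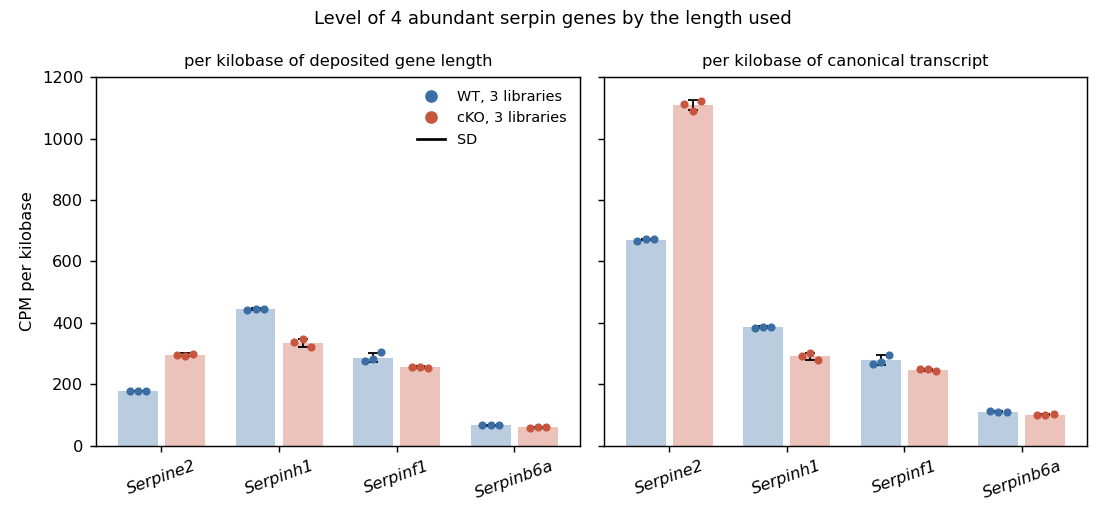
Level of 4 abundant serpin genes in CPM per kilobase of the deposited gene length (left) and of the canonical transcript (right), with bars at the mean of 3 libraries per group, points for the libraries and error bars for the SD. *Serpine2* stands below *Serpinh1* in the left panel and above it in the right panel, and in both panels its cKO libraries lie above its WT libraries while those of the other 3 genes lie below.

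*Serpine2* encodes protease nexin 1, a cell-surface and matrix inhibitor of thrombin and of the plasminogen activators. It lies on chromosome 1 from 79771914 to 79838897 of mm39. Its level was 1476, 1486 and 1485 CPM in WT and 2459, 2409 and 2483 CPM in cKO. Every cKO library lay above every WT library, and the log2 fold change was 0.73 ± 0.030 (SE) with an adjusted p of 1.56e-12. *Serpine3* had at most 4 counts in any library.

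*Serpinb2* and *Serpini1*, which inhibit plasminogen activators too, were lower. *Serpinb2*, which encodes plasminogen activator inhibitor type 2, lies on chromosome 1 from 107439153 to 107463208. Its counts were 2330, 2591 and 2439 in WT and 600, 451 and 486 in cKO, or 55.6 ± 6.27 against 12.1 ± 1.90 CPM (SD, n = 3 each). The lowest WT library was over the highest cKO library by more than the range of either group, and the log2 fold change was -2.20 (standard error 0.10, adjusted p = 6.31e-12), the largest fall among the serpins above 10 CPM in WT. *Serpinb2* is a gene that LPS-treated macrophages express, and the macrophage markers given above moved in the opposite direction, with their part not tested. Of the exon bases of *Serpinb2*, 20.4% overlap other genes, namely its neighbour *Serpinb10* on the same strand and *Gm70772* on the other, so part of its reads may be unassigned or shared. *Serpinb10* itself was at 18, 10 and 16 counts in WT and 10, 3 and 4 in cKO and did not pass. *Serpini1*, neuroserpin, an inhibitor of the tissue-type activator, was at 145, 206 and 123 counts in WT and 97, 91 and 96 in cKO (log2 fold change -0.65, standard error 0.20, adjusted p = 0.0167). It no longer passed without WT replicate 2 (adjusted p = 0.0865) or without cKO replicate 3 (adjusted p = 0.0607). *Serpinf2*, the plasmin inhibitor alpha 2-antiplasmin, had at most 7 counts in a library.

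The proteases and receptors that these serpins act with moved in both directions. *Plau*, the urokinase-type activator, went from 144.5 ± 6.74 to 181.6 ± 5.48 CPM (SD, n = 3 each), with a log2 fold change of 0.33 (adjusted p = 1.37e-05). *Plat*, the tissue-type activator, fell from 112.1 to 59.0 CPM, which is -0.92 on the log2 scale (adjusted p = 7.78e-11), and *Plaur*, the urokinase receptor, stood at 47.0 CPM in WT and rose to 77.0 CPM (adjusted p = 3.54e-08). *Plg*, the gene of plasminogen, was at 0 counts in every library, so the substrate of both activators was not detected as RNA. Of the 23 tested genes of plasminogen activation, coagulation and their receptors, 9 rose and 10 fell, with a median of -0.03. The called members with the smallest p-values were *Vldlr*, a receptor that takes up serpin complexes (log2 fold change -1.14), *F3*, the tissue factor that starts coagulation (-1.04), *Vwf* (1.67) and *F13a1* (1.01). *Lrp1*, the main uptake receptor for serpin complexes, was at 6880 ± 447.6 CPM in WT and 6717 ± 166.4 CPM in cKO and did not pass (adjusted p = 0.520). *Serpinc1*, antithrombin, was near the limit of detection at 13 to 35 counts in WT and 5 to 28 in cKO and did not pass. *Zbtb37* on the opposite strand overlaps 34.4% of its exon bases. The strand setting of the counting is not given, so part of the *Serpinc1* count may belong to *Zbtb37*. *Serpind1*, heparin cofactor II, had at most 8 counts.

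*Serpinh1* and *Serpinf1*, which are among the members that do not inhibit proteases, were also lower in cKO. *Serpinh1*, on chromosome 7 from 98994583 to 99002446, was at 1080, 1090 and 1088 CPM in WT and 824.9, 845.4 and 783.2 CPM in cKO. The groups did not overlap, and the log2 fold change was -0.41 (standard error 0.036, adjusted p = 4.11e-08). Its client *Col1a1* fell in the same libraries from 5802 to 3650 CPM, or by 0.67 on the log2 scale (adjusted p = 1.21e-10). Of the 27 tested genes of collagen synthesis and folding, 5 rose and 14 fell, with a median of -0.14. Over all tested genes, 20.1% rose and 19.2% fell. Stromal markers moved in the same libraries. Of 12 tested fibroblast markers, 3 rose and 8 fell. Of these 12, 2 were called higher and 5 lower, where 6.56% and 4.64% of all genes were. Their summed level was 2332 to 2483 CPM in WT and 1679 to 1744 CPM in cKO. Of 11 tested osteoblast markers, 4 rose and 4 fell, with 2 called higher and 0 lower. The summed level of osteoblast markers, most of it from *Spp1*, *Col1a1* and *Col1a2*, was 16843 to 19054 CPM in WT and 12117 to 12621 CPM in cKO. The part of these cells in the fall of *Serpinh1* was not tested. Called among the collagen genes were *Ero1a*, an oxidase of the endoplasmic reticulum (log2 fold change -1.69), and in the other direction *P3h2*, a collagen prolyl 3-hydroxylase (1.39). *P4hb*, the disulfide isomerase that is part of prolyl 4-hydroxylase, fell with a log2 fold change of -0.54, below the limit on size. *Serpinf1*, which encodes pigment epithelium-derived factor, lies on chromosome 11 from 75300595 to 75313527 and was at 647.1, 665.4 and 718.6 CPM in WT and 608.0, 603.0 and 593.2 CPM in cKO. The groups did not overlap, but the difference was small, with a log2 fold change of -0.17 ± 0.040 (SE) and an adjusted p of 0.00246.

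**Figure D3:**
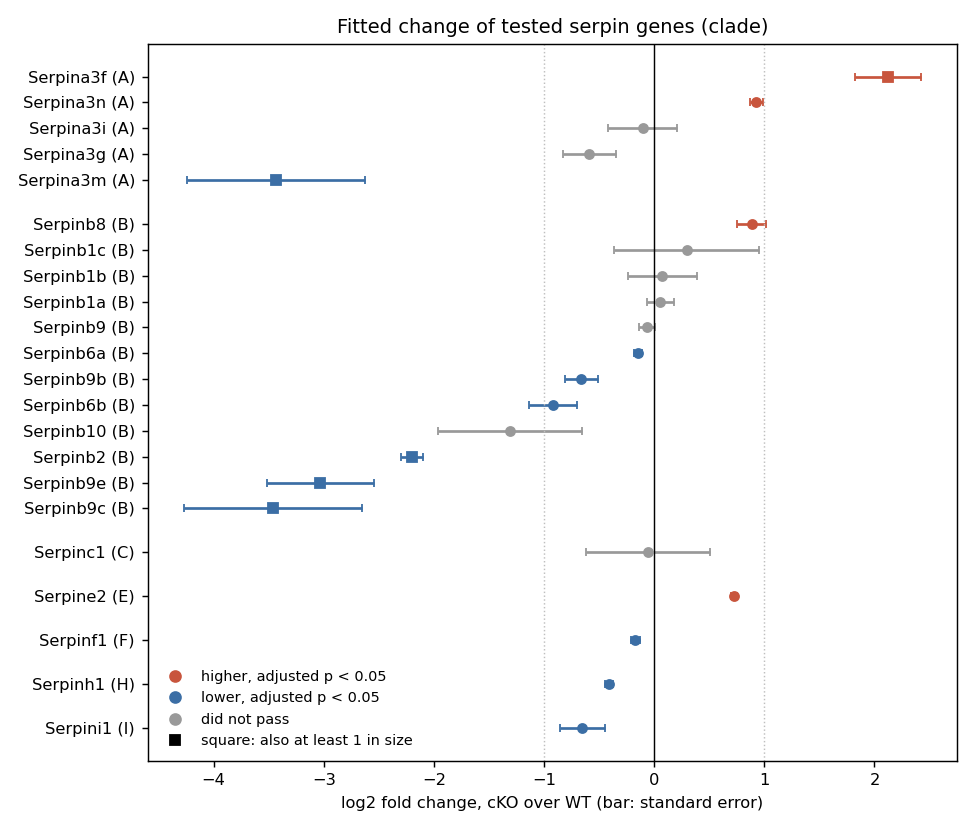
Fitted log2 fold change of the 22 tested serpin genes with its standard error, ordered within clades A to I, with red for higher, blue for lower and grey for genes that did not pass. Squares mark changes of at least 1 in size. *Serpine2* lies to the right of 0 and *Serpinf1* and *Serpinh1* to the left, and the short bars of the abundant genes contrast with the wide ones of *Serpina3m* and *Serpinb9c*.

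Clade A held 24 members, 5 of which were tested, and all 5 are copies of the antichymotrypsin gene in the clade A cluster of chromosome 12. Of these, 2 rose, 1 fell and 2 did not pass. *Serpina3n*, the copy known as an acute-phase gene and as an inhibitor of granzyme B, lies from 104372988 to 104380588. It was at 2022, 2425 and 1834 counts in WT and 3954, 3687 and 3701 in cKO, or 47.0 ± 1.98 against 89.4 ± 6.88 CPM (SD, n = 3 each). The log2 fold change was 0.93 (standard error 0.060, adjusted p = 7.05e-10), just under the limit on size. *Serpina3f*, from 104180803 to 104187388, was at 66, 27 and 53 counts in WT and 236, 209 and 169 in cKO. Every cKO library was above every WT library, and the log2 fold change was 2.12 (standard error 0.30, adjusted p = 1.49e-05). *Serpina3g*, the next gene along, encodes an intracellular inhibitor of cathepsins, and it was at 145, 134 and 110 counts in WT and 57, 91 and 99 in cKO. Its libraries did not overlap either, in the other direction, but it did not pass (log2 fold change -0.59, standard error 0.24, adjusted p = 0.0644). *Serpina3i* was at 77 to 106 counts in WT and 49 to 126 in cKO and did not pass.

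The fifth copy, *Serpina3m*, from 104304745 to 104360516, was at 18, 15 and 16 counts in WT and 2, 2 and 0 in cKO. All its cKO libraries were at or under a floor of 3 counts per library. The WT mean was 5.24 times that floor, a ratio that leaves out the counting error in WT. The fitted log2 fold change was -3.43 (standard error 0.81, edgeR's adjusted p = 0.00234). Even numbers made up 63.4% to 65.7% of all counts from 1 to 10, which happens when the 2 mates of a pair count separately. With a floor of 6 counts the WT mean was 2.62 times the floor. The copies share sequence. In GENCODE M39, 38.6% of the 50-base windows of *Serpina3g* transcripts also occur in another gene, mostly in *Gm56487*, which overlaps it on the same strand. The same share was 10.4% for *Serpina3f*, 8.22% for *Serpina3m*, 7.97% for *Serpina3i* and 3.30% for *Serpina3n*, so the counts of the first 4 are less certain than that of *Serpina3n*.

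The promoters of the 3 copies that had most counts are shown because *Serpina3n* and *Serpina3f* rose while *Serpina3g*, a close relative beside *Serpina3f*, did not pass. They are the 250 bases before the RefSeq transcript start, read from the GRCm38.p6 table and each found once in GRCm39, on the plus strand, at chr12:104372717-104372966 for *Serpina3n*, chr12:104180553-104180802 for *Serpina3f* and chr12:104202156-104202405 for *Serpina3g*. Capitals mark matches on either strand to motifs of factors that act in inflammation, namely NF-kB (GGNNNTTCC), STAT (TTCNNNGAA) and C/EBP (TTGCNNAA).
Serpina3n: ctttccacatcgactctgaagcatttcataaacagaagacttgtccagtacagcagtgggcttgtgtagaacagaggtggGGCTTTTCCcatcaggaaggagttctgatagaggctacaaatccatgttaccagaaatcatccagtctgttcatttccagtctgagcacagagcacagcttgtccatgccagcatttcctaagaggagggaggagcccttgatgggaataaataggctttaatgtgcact
Serpina3f: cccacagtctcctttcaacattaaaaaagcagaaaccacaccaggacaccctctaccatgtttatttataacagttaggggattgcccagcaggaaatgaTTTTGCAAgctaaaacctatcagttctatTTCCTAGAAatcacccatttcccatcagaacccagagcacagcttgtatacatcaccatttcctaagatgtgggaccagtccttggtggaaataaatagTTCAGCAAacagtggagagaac
Serpina3g: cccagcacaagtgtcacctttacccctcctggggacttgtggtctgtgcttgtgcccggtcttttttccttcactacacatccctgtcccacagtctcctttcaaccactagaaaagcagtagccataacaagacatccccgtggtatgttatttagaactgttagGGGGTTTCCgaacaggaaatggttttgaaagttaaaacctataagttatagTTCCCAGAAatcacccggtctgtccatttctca
*Serpina3f* and *Serpina3g* matched at 82.6% of 144 aligned bases, *Serpina3n* and *Serpina3f* at 71.2% of 219, and *Serpina3n* and *Serpina3g* at 69.3% of 150. The NF-kB letters occur in the promoters of *Serpina3n*, 170 bases upstream, and of *Serpina3g*, 84 bases upstream, and not in that of *Serpina3f*. The STAT letters occur in *Serpina3f*, 121 bases upstream, and in *Serpina3g*, 33 bases upstream, and the C/EBP letters at 2 places in *Serpina3f*. Of 32851 mouse promoters of this length, 15.7% hold the NF-kB letters, 7.02% the STAT letters and 9.56% the C/EBP letters. A match in letters is a description and not a site of binding.

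The acute-phase and LPS response genes form the list to which *Serpina3n* is closest by function. Of its 38 tested members, 22 rose and 5 fell, with a median log2 fold change of 0.33. Over all tested genes, 20.1% rose and 19.2% fell. The list was written with earlier results of these data known, so its counts and median are not read against those of all genes. Called higher with the smallest p-values were *Saa2* (log2 fold change 1.90), *Il6* (1.24), *Saa1* (1.21) and *Cxcl2* (1.34). The part of macrophages, whose markers rose in the same libraries, was not tested. The antitrypsin genes of the same cluster, *Serpina1a*, *Serpina1c*, *Serpina1d* and *Serpina1e*, were at 0 counts in every library, and *Serpina1b* and *Serpina1f* had at most 9. The liver genes *Ahsg* and *Ttr* were at 0 as well.

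Clade B held 28 members, 12 of which were tested. Of these, *Serpinb8* rose, 6 fell and 5 did not pass, where 20.1% of all tested genes rose and 19.2% fell. Among the 6, *Serpinb9c* and *Serpinb9e* entered the test through WT, where they were high. The count that fell is therefore not read against that share. *Serpinb8*, an inhibitor of the convertase furin, lies at the end of the clade B cluster of chromosome 1, from 107517736 to 107538214. It was at 320, 318 and 205 counts in WT and 468, 515 and 488 in cKO, with no overlap (log2 fold change 0.88, standard error 0.13, adjusted p = 3.23e-05). Its target *Furin* was at 171.1 CPM in WT and 188.2 CPM in cKO (log2 fold change 0.14, adjusted p = 0.0407). *Serpinb2* and *Serpinb8* lie in the same cluster, with *Serpinb10* between them, and differed in direction.

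The promoter of *Serpinb2* is shown as that of the serpin with the largest fall among those above 10 CPM in WT, and the promoter of *Serpine2* as that of the abundant serpin that rose. The *Serpinb2* promoter lies on the plus strand at chr1:107438903-107439152 and ends where the deposited gene begins. The *Serpine2* promoter lies on the minus strand at chr1:79836383-79836632 and inside the deposited gene, whose span reaches further upstream. Capitals mark an AP-1 (TGANTCA), a C/EBP and a TATA box (TATAAA) match in *Serpinb2*, and GC boxes (GGGCGG), some of which share bases, in *Serpine2*.
Serpinb2: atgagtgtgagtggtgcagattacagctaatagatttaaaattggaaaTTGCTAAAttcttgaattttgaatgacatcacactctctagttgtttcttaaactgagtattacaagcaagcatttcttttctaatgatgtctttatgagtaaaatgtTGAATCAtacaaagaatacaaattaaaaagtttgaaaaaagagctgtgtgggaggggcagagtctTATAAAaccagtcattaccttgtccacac
Serpine2: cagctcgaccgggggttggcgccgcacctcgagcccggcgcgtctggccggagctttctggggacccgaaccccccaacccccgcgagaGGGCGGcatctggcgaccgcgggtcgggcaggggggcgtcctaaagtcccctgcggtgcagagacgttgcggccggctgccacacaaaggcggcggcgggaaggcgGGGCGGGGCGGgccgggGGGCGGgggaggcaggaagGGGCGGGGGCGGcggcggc
In *Serpinb2* the AP-1 letters TGAATCA begin 94 bases and the TATA box 29 bases upstream of the start. In *Serpine2* GC box letters begin at 6 places, the nearest 13 bases upstream, with no TATA box letters in the window. Of all mouse promoters of this length, 6.75% hold the AP-1 letters, 7.59% the TATA box letters and 32.7% the GC box letters. Letters for CRE (TGACGTCA), SMAD (CAGACA) and the hypoxia response element (ACGTG) were searched too, on both strands, and occur in none of the 5 promoters shown here. *Serpina3f* and *Serpinb2* have 2 entries each, of which the more upstream is shown. A promoter entry was matched by symbol for 54 of the 61 members, 20 of them tested.

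The clade B cluster of chromosome 13 lies from 33026075 to 34186777 and holds 16 members, 9 of which were tested. None rose, 5 fell and 4 did not pass. Of the 5 that fell, *Serpinb9c* was above the filter's minimum in 3 WT and 0 cKO libraries and *Serpinb9e* in 3 WT and 1 cKO library. These 2 genes entered the test through WT, where they were high, so the count is not read against the share of all genes that fell. The other 3, *Serpinb6a*, *Serpinb6b* and *Serpinb9b*, were above the minimum in every library. The most abundant gene of the cluster, *Serpinb6a*, an inhibitor of cathepsin G and other serine proteases, lies from 34101901 to 34186777. It was at 359.8, 355.8 and 357.3 CPM in WT and 318.2, 321.2 and 328.1 CPM in cKO, with no overlap and a small log2 fold change of -0.15 ± 0.037 (SE) and an adjusted p of 0.00326. Genes on the opposite strand (*Nqo2*, *Ripk1* and *1110046J04Rik*) overlap 21.5% of its exon bases, and the strand setting of the counting is not given in the sources used here, so part of its count may belong to them.

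Its paralogue *Serpinb6b* was lower by more. It was at 160, 214 and 211 counts in WT and 76, 98 and 125 in cKO, with no overlap (log2 fold change -0.92, standard error 0.22, adjusted p = 0.00262). *Serpinb9*, the inhibitor that protects cells from granzyme B, was at 1049, 1214 and 909 counts in WT and 995, 871 and 1023 in cKO. Its groups overlapped and it did not pass (log2 fold change -0.06, standard error 0.073, adjusted p = 0.528). For 3 copies of *Serpinb9* a fall passed the test, and whether it differed from the change of *Serpinb9* was not tested. *Serpinb9b* was at 477, 466 and 369 counts in WT and 322, 240 and 226 in cKO (log2 fold change -0.66, standard error 0.15, adjusted p = 0.00158). *Serpinb9e*, from 33433595 to 33444833, was at 93, 92 and 37 counts in WT and 3, 12 and 10 in cKO (log2 fold change -3.03, standard error 0.49, adjusted p = 7.2e-05). *Serpinb9c*, from 33333258 to 33343725, was at 14, 26 and 22 counts in WT and 1, 4 and 0 in cKO (log2 fold change -3.46, standard error 0.80, adjusted p = 0.00216). This value rests on few counts, and its log2 fold change was -5.04 without cKO replicate 2 and -2.87 without cKO replicate 3. In each of these 3 copies every cKO library was below every WT library.

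Other copies had too few counts to be tested. *Serpinb9g* was at 19, 27 and 3 counts in WT, *Serpinb6c* at 10, 22 and 2, and both were at 0 in every cKO library. *Serpinb9f* was at 4, 2 and 15 counts in WT and 0, 0 and 2 in cKO, and *Serpinb9d* at 3, 0 and 2 in WT and at 0 in cKO. *Serpinb6e* had at most 2 counts, and *Serpinb9h* and *Serpinb6d* had 0. The copies are hard to count apart, since 28.4% of the windows of *Serpinb9e* and 18.0% of those of *Serpinb9c* occur in another gene, the former mostly in *Serpinb9f*. For *Serpinb9b* and *Serpinb9* this share was 0.478% and 0.254%. *Serpinb1a*, an inhibitor of neutrophil elastase, and its copies *Serpinb1b* and *Serpinb1c* in the cluster did not pass. Their log2 fold changes were 0.06, 0.07 and 0.29, with standard errors of 0.13, 0.31 and 0.66. *Serpinb1a* was at 341 to 454 counts in WT and 357 to 436 in cKO, and the other 2 copies at 79 counts or fewer.

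**Figure D4:**
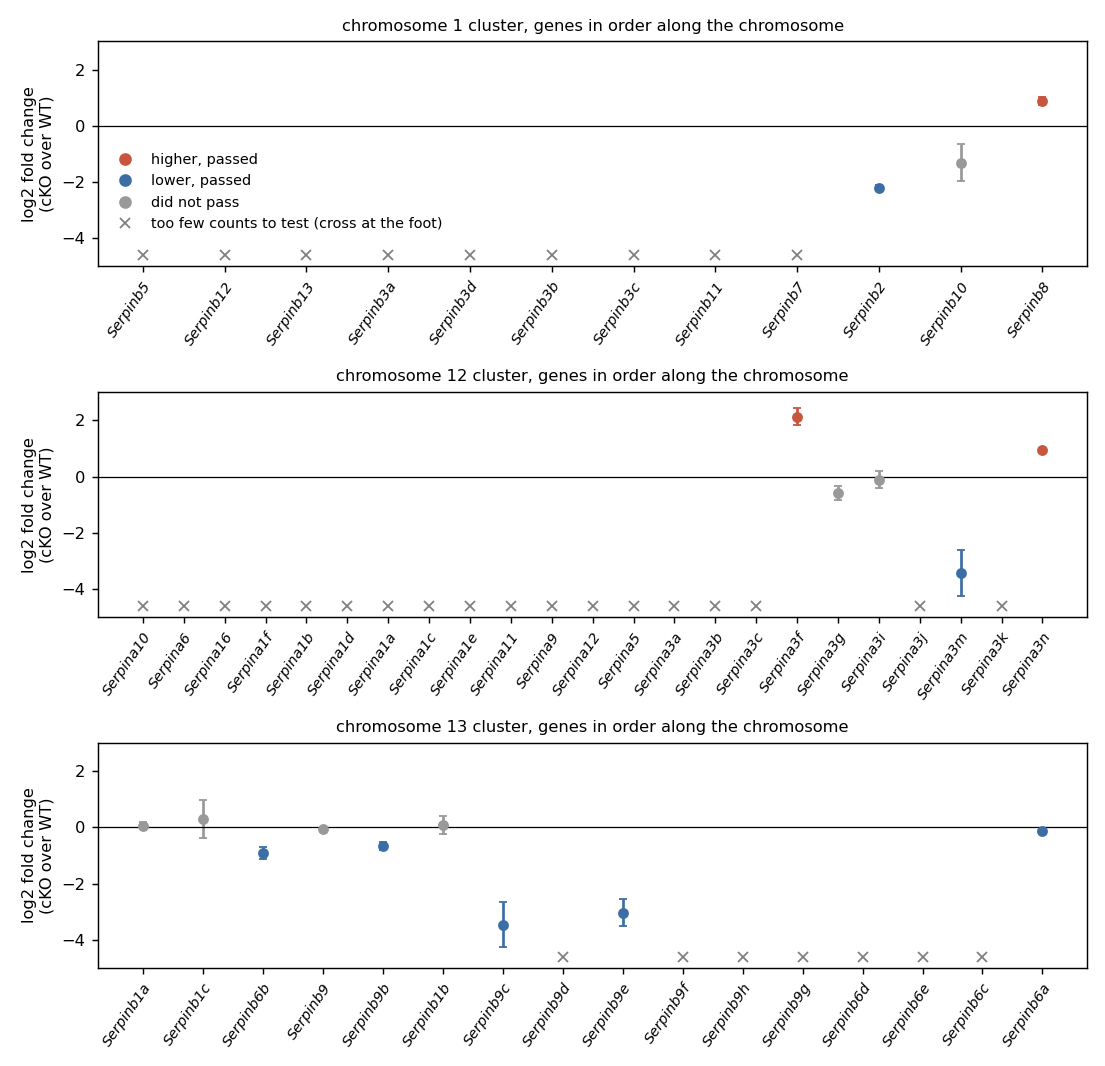
Fitted log2 fold change with its standard error for the members of the 3 serpin clusters, in their order along chromosomes 1, 12 and 13, with red for higher, blue for lower, grey for genes that did not pass and crosses at the foot for genes with too few counts to test. Of the 5 lower genes in the chromosome 13 cluster, *Serpinb9c* and *Serpinb9e* entered the test through WT, as did *Serpina3m* in the chromosome 12 cluster, and the clusters were not tested against each other.

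Clade B serpins act on members of 2 classes of proteases, and genes of both classes were listed. The lists hold genes of a class and not only known targets. Of 24 serine proteases of leukocytes in the count table, 7 were tested. Of these 7, 0 rose and 6 fell, with a median of -1.16. Over all tested genes, 20.1% rose and 19.2% fell. A low gene could enter the test through the group where it was high, so the count that fell is not read against that share. *Mcpt8*, a serine protease of basophils, fell from 20.1 to 4.28 CPM, and the granzyme genes *Gzmd* and *Gzmc* and the neutrophil protease gene *Prtn3* fell with log2 fold changes of -1.98, -1.13 and -1.16. *Gzmb*, the target of *Serpinb9*, was at 2 to 18 counts and was not tested, and *Ctsg*, the target of *Serpinb6a*, was at 0 in every library. Of the 18 markers of T, NK and B cells, 13 had at most 3 counts in any library, including *Cd3e* and *Nkg7* at 0, and of the 10 mast cell markers 6 did, including *Cpa3* at 0. Of the 16 neutrophil markers, 7 had at most 3 counts, including *S100a9* at 0, while of the 7 tested 5 rose and 2 fell (*Mmp9* and *Prtn3*). Their summed level was 1166 to 1224 CPM in WT and 1736 to 1832 CPM in cKO, most of it from *Lcn2* at 1164 and 1741 CPM. Of the 9 tested cysteine cathepsins, 5 rose and 3 fell, with a median of 0.51. *Ctss* rose from 76.2 to 683.5 CPM, *Ctsc* from 11.5 to 96.6 CPM and *Ctsb* from 1711 to 3436 CPM. Cathepsin S and cathepsin C are abundant in macrophages, whose markers rose in the same libraries, and their part was not tested.

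Protease genes and inhibitors outside these groups showed both directions as well. Of the 24 tested other serine proteases and convertases, 3 rose and 10 fell, with a median of -0.25, where 20.1% and 19.2% of all tested genes did. Called with the smallest p-values were *Pcsk2* (log2 fold change 3.24), *Prss12* (-1.28), *Klk8* (-1.47) and *Dpp4* (-2.28). Of the 25 tested protease inhibitors that are not serpins, 6 rose and 8 fell, with a median of -0.0018. *Itih2*, a heavy chain of the inter-alpha-trypsin inhibitors, fell from 142.0 to 50.7 CPM, and *Tfpi2*, an inhibitor of plasmin and other serine proteases, from 15.5 to 1.33 CPM. *A2m*, the broad inhibitor alpha 2-macroglobulin, went from 3.47 ± 0.57 CPM to 0 counts in every cKO library, and *Wfdc17* rose from 6.39 to 28.4 CPM. Among 22 genes that respond to TGF-beta, glucocorticoid or hypoxia signals, 7 rose and 11 fell, with a median of -0.13. *Ccn2* and *Ccn1*, which respond to TGF-beta and to cell tension, fell with log2 fold changes of -0.57 and -0.48, and *Ankrd1* was called lower at -1.03.

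**Figure D5:**
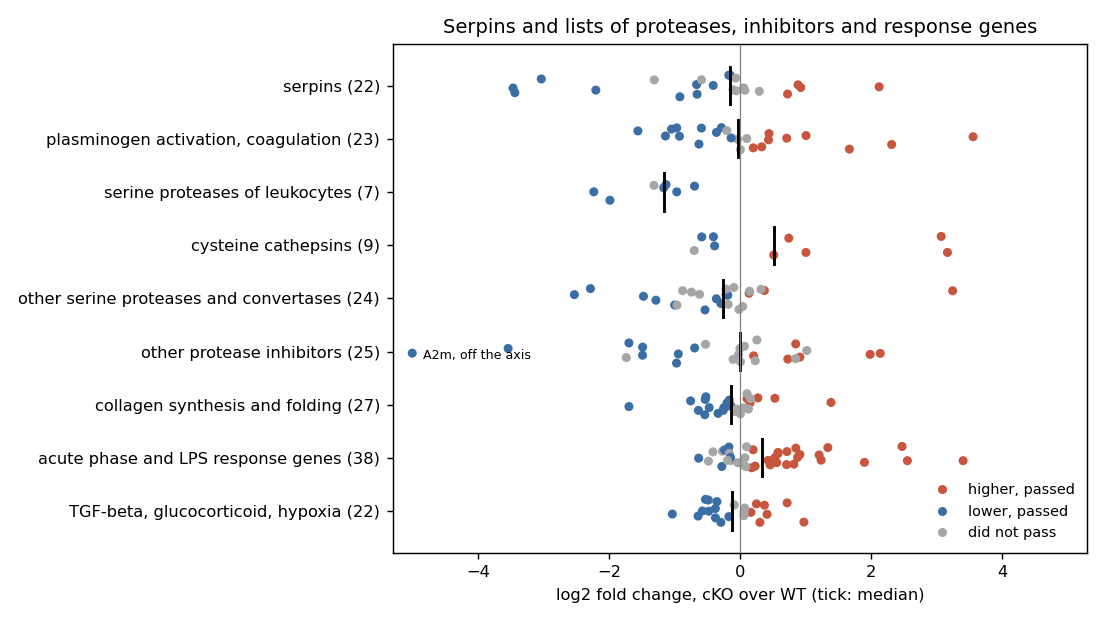
Fitted log2 fold change of every tested gene in the serpin set and 8 lists, with a vertical tick at each median and the number of tested genes in parentheses. The leukocyte serine proteases lie to the left of 0, the cathepsins *Ctss* and *Ctsc* far to the right, and *A2m*, at 0 counts in cKO, lies off the axis.

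The remaining members gave few or no reads. Of the 39 serpins that were not tested, 19 were at 0 counts in every library and 20 had some counts, with 27 in a library as the highest. At 0 throughout were 11 genes of clade A, 7 of clade B (*Serpinb13*, *Serpinb3a*, *Serpinb3b*, *Serpinb3c*, *Serpinb3d*, *Serpinb9h* and *Serpinb6d*) and *Serpini2* of clade I. In clade A these were, beside the 4 antitrypsin genes, *Serpina10*, *Serpina11*, *Serpina16*, *Serpina3a*, *Serpina3b*, *Serpina3j* and *Serpina3k*. With some counts, *Serpina9*, *Serpina12*, *Serpina3c*, *Serpina5*, *Serpina6* and *Serpina7* had at most 12 in a library, and so did *Serpinb5*, *Serpinb7*, *Serpinb11* and *Serpinb12*. A count of 0 allows up to 3 counts in a library, or 0.060 to 0.077 CPM at these depths, and covers counting error only. With mates counted separately, as considered for *Serpina3m*, the limit is 6 counts.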

How the data were processed

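Bulk RNA sequencing of 3 WT and 3 cKO libraries from stimulated primary osteocytes was analysed. Per the labels, 150 bp reads from both fragment ends were trimmed by the authors, mapped to mm39 (GRCm39) with HISAT2 2.0.5 and counted per gene with featureCounts 1.55.0-p3. The authors deposited raw counts per gene with a gene length in bases. The methods name another featureCounts release and also RSEM, and the libraries came from a directional kit, with the strand setting of the counting not given in the sources used here. Totals per library lay between 39566835 and 49734046 counts, and replicates varied with a biological coefficient of variation of 8.36%.

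Serpins were the protein-coding rows whose symbol begins with Serpin, without clade G. Of the 62 genes that met this rule 1 is not reported here and stands in no count of serpins, and 1 gene was left out of a list likewise. From the deposited counts, fold changes were fitted on the whole table with edgeR 4.0.16 in R 4.3.3 (filterByExpr, TMM, glmQLFit without robust estimation, glmQLFTest, genotype as the only term), with Benjamini-Hochberg adjustment over 17146 genes. CPM per kilobase used the deposited gene length. Members with the highest levels, called members and up to 4 called genes per list were named in full, and every other tested member described at least once. The members and lists were chosen with earlier results of these data known. Alternatives were DESeq2 1.42.0, other scalings and filters, halved counts, a replicate block and each library left out. The fits were tested on simulated data. No 2 replicates agreed within sampling noise (chi-square per gene 4.88 to 13.9), so no pair was treated as 1 library. This does not show that the libraries came from separate cultures or mice. Shared 50-base windows and overlaps came from GENCODE M39, and promoters from RefSeq (GRCm38.p6), placed in GRCm39 by exact match and aligned with Biopython 1.88. Reads carry no molecular identifiers and are not independent molecules, so floors cover counting error only.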

Additional observations from a re-analysis of the deposited data

How the results depend on the processing

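The count of serpins called higher stayed at 1, and the count called lower ranged from 4 to 6, with each library left out in turn. Over all genes the counts ranged from 1027 to 1153 higher and 773 to 827 lower, and over the 8 lists from 16 to 19 higher and 15 to 20 lower. With at least 10 counts required in every library, 1 of 16 tested serpins and 522 genes in all were called lower, since that filter removes genes that fell to a few counts. With counts halved, 2 of 18 tested serpins were called lower, as *Serpinb9c* and *Serpina3m* were no longer tested. Without the limit on the fold change, 4 serpins passed as higher and 10 as lower, 57 and 67 genes of the lists, and 3445 and 3285 genes in all. The ratio of *Serpine2* to *Serpinh1* moved to 1.36 in WT and 3.00 in cKO on the CPM scale, and to 1.74 and 3.81 per kilobase of canonical transcript, a setting chosen after seeing the data. DESeq2, the other scalings and the filter of at least 1 count moved none of these counts by more than 1.5 times.

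The replicate numbers did not pair the libraries, as deviations from the group means of same-numbered libraries correlated at -0.0055, 0.0023 and -0.010. With replicate number as a block, 1 serpin was called higher and 4 lower, 18 and 17 genes of the lists, and 1087 and 772 genes in all. The deviations of no WT library correlated above 0.0172 with those of any cKO library.

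For the 22 tested serpins, 266 of 276 values under the alternatives kept their direction and their side of the adjusted p limit. *Serpini1* no longer passed in 2 of them, as given above. The 8 values that changed sign were those of 5 genes that did not pass. With each library left out in turn, *Serpinb1a* ranged from -0.080 to 0.12, *Serpina3i* from -0.49 to 0.14, *Serpinb1b* from -0.14 to 0.24, *Serpinb1c* from -0.20 to 0.87 and *Serpinc1* from -0.40 to 0.38. Among called serpins, the log2 fold change ranged likewise from -5.04 to -2.87 for *Serpinb9c* and from -3.85 to -2.85 for *Serpina3m*. It ranged from -3.44 to -2.64 for *Serpinb9e*, from -2.33 to -2.11 for *Serpinb2* and from 1.77 to 2.36 for *Serpina3f*. Depth limits the low members, with a standard error of 0.030 for *Serpine2* at 57642 or more counts in WT and 0.80 for *Serpinb9c* at 26 or fewer.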
